A study of Mus musculus with 12 samples.

Results

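The 9 factors of nonsense-mediated mRNA decay (NMD) described here are *Upf1*, *Upf2*, *Upf3a*, *Upf3b*, *Smg1*, *Smg5*, *Smg6*, *Smg8* and *Smg9*. They were chosen by gene symbol, and all 9 were found among the 42450 genes of the polyA+ RNA-seq count table. All 9 were also among the 19410 genes that passed the filter on low counts, with at least 2196 estimated counts in every library. The cells were wild-type E14tg2a.4, 1 line of mouse embryonic stem cells (mESC) grown with the cytokine LIF, and all 4 groups were grown in serum-free medium before collection. The groups were Gl2-KD and Srrm2-KD, each at 24 h and at 72 h. Gl2-KD cells received 50 nM siRNA against firefly luciferase, a gene that mouse cells lack, and Srrm2-KD cells received 50 nM siRNA against *Srrm2*. The cells collected at 72 h were transfected again with the same siRNA. Each group had 3 libraries, 1 from each of 3 experiments, so experiments 1, 2 and 3 each held all 4 groups. Values are given in this order of experiments, in CPM, estimated counts divided by the library size after TMM scaling and set to a common scale.

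NMD destroys mRNAs whose stop codon lies more than about 50 nt upstream of an exon junction or before an unusually long 3′ UTR. It thereby also removes many products of faulty splicing. UPF1, an RNA helicase, is joined at the terminating ribosome by UPF2 and by UPF3A or UPF3B, which contact the exon junction complex. The kinase SMG1, held in check by SMG8 and SMG9, phosphorylates UPF1, which then binds the endonuclease SMG6 and the adaptor SMG5. Several mRNAs for these factors are NMD targets themselves, so that their levels are known to rise when the pathway is blocked. SRRM2 is a spliceosome-associated protein, and the comparison of Srrm2-KD with Gl2-KD asked whether such a rise was seen when *Srrm2* was lowered. Counts were summed per gene, so faulty isoforms are not separated here.

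In 3 of the members, *Smg1*, *Smg5* and *Smg6*, 1 annotated isoform belongs to the class that NMD degrades, and its stop codon is shown beside that of the main isoform because it is the feature NMD acts on. The sequences are from GENCODE M21 (GRCm38) and end with the stop codon in capitals after the last codons of the reading frame. All 3 of the NMD-class isoforms are annotated with an incomplete 5′ end.
Smg1, main isoform, stop codon starting at chromosome 7 position 118135543 (reverse strand): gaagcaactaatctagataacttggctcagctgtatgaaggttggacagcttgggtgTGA
Smg1-204, NMD class, stop codon starting at chromosome 7 position 118210782 (reverse strand): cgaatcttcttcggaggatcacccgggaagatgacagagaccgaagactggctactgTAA
Smg5, main isoform, stop codon starting at chromosome 3 position 88361106 (forward strand): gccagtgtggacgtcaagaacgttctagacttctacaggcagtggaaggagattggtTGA
Smg5-202, NMD class, stop codon starting at chromosome 3 position 88347595 (forward strand): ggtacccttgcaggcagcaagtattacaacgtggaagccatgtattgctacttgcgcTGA
Smg6, main isoform, stop codon starting at chromosome 11 position 75162948 (forward strand): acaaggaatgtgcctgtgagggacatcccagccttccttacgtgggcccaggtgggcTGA
Smg6-202, NMD class, stop codon starting at chromosome 11 position 74990094 (forward strand): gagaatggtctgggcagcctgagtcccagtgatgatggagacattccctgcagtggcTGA
In Smg1-204 the stop codon is followed by 59 exon junctions, the last of them 10397 nt downstream. In Smg5-202 it is followed by 3 junctions, the last 434 nt downstream, and in Smg6-202 by 9 junctions, the last 1379 nt downstream. None of the 3 main isoforms has a junction after its stop codon. Among the main isoforms of the other 6 members, *Upf1* alone has a junction there, 3 nt after the stop codon, which is less than 50 nt. Of the 21395 coding genes, 86 (0.4%) have a junction over 50 nt after the stop codon of the main isoform. The 3′ UTRs of the 9 main isoforms span 224 nt in *Smg8* to 4236 nt in *Smg1*, against a median of 779 nt over 21395 coding genes.

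Library totals ranged from 73933196 to 153343831 estimated counts, and the first principal component, with 42.0% of the variance, set experiment 1, with its 4 libraries, apart from the other 8. All 3 experiments had less *Srrm2* in Srrm2-KD at both times, with log2 fold changes of -1.22 (SE 0.14) at 24 h and -1.16 (SE 0.14) at 72 h. Its adjusted p-values were 0.0663 and 0.0991 in edgeR's quasi-likelihood test, and DESeq2 and limma-voom called it at both times. The 7 mESC markers summed to between 3850 and 4670 CPM in every library, with *Pou5f1* at 1150 CPM or more. The 8 germ layer and primitive endoderm markers summed to 11.2 to 38.5 CPM, of which *Pax6* made up 6.89 to 34.6 CPM, and *Sox17* was at 0.100 CPM or less. The 6 fibroblast markers summed to 3.89 to 24.8 CPM, mostly *Thy1*, and *Dcn* was at 0.0493 CPM or less.

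Per length of the main isoform, *Smg5* was the most abundant member, with 50.0 ± 3.05 CPM per kb (SD over the means of 3 experiments). *Upf3b* followed with 25.6 ± 2.44, *Upf3a* with 19.5 ± 3.85, *Smg9* with 15.6 ± 2.31 and *Upf2* with 14.4 ± 2.13 CPM per kb. *Smg8* had 11.7 ± 1.73, *Smg6* 10.2 ± 2.95, *Smg1* 8.54 ± 5.58 and *Upf1* 7.40 ± 1.04 CPM per kb. By the range of the experiment means, only *Smg5* stood apart from its neighbour in this order, and each other pair of neighbours overlapped. Within each experiment the order still held for *Upf3b* over *Upf3a*, *Upf3a* over *Smg9* and *Upf2* over *Smg8*. The order of the last pair turned with the experiment, since *Smg1* was above *Upf1* in experiment 1 (14.98 against 8.49 CPM per kb) and below it in experiment 2 (5.13 against 7.29) and experiment 3 (5.51 against 6.42).

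**Figure D1:**
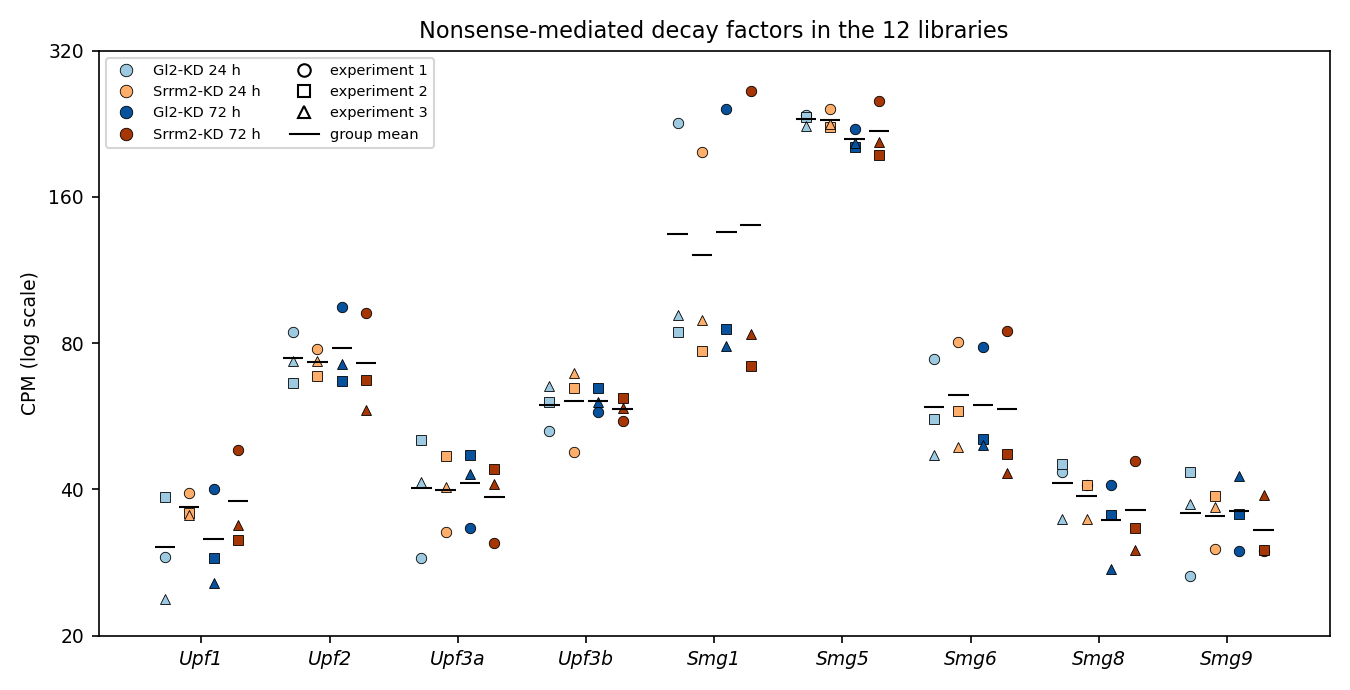
Levels of the 9 members in CPM (log axis), with 1 symbol per library, colour for the group, shape for the experiment and a line at each group mean (n = 3). The 4 groups of each gene lie at similar heights, while the circles of experiment 1 stand apart from the other symbols in *Smg1*, at 198 to 265 CPM against 71.8 to 91.4.

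None of the 9 members was called in Srrm2-KD against Gl2-KD at 24 h or at 72 h (adjusted p = 1 for all 9 at 24 h and 0.558 to 0.981 at 72 h, quasi-likelihood test of edgeR, Benjamini-Hochberg over all genes). This test called 0 of the 19410 genes at either time (0%), so the lack of calls is not particular to the members. None of the 9 had an unadjusted p below 0.05 at either time, against 2.62% of all genes tested at 24 h and 12.9% at 72 h. DESeq2, which called 0.129% of all genes at 24 h and 2.79% at 72 h, called 0 members, as did limma-voom, which called 0.0103% and 0.0206%. The median log2 fold change of the members was -0.005 at 24 h and -0.06 at 72 h, beside 0.005 and -0.01 over all genes tested. The sign was positive for 4 members and negative for 5 at 24 h, and positive for 3 and negative for 6 at 72 h.

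The member with the highest log2 fold change was *Upf1* (ENSMUSG00000058301, chromosome 8, 70331525 to 70353278, reverse strand). Its levels were 29.1, 38.7 and 23.8 CPM in Gl2-KD and 39.4, 35.7 and 35.4 CPM in Srrm2-KD at 24 h. The later levels, at 72 h, were 40.2, 29.0 and 25.7 CPM in Gl2-KD and 48.2, 31.4 and 33.8 CPM in Srrm2-KD. *Upf1* was higher in Srrm2-KD in experiments 1 and 3 at 24 h and in all 3 experiments at 72 h, yet the groups overlapped at both times. The log2 fold change was 0.28 (SE 0.17, unadjusted p = 0.141) at 24 h and 0.27 (SE 0.17, unadjusted p = 0.155) at 72 h in edgeR. Their 95% intervals ran from 0.929-fold to 1.58-fold at 24 h and from 0.922-fold to 1.57-fold at 72 h. A rise of about this size could therefore neither be called nor set aside at this number of libraries. Over the 26 other settings tried, its adjusted p was lowest with each time point fitted alone, at 0.501 for 24 h and 0.188 for 72 h in edgeR. Exons of *Upf1* share 68 nt with *Cers1* and 63 nt with *Gdf1* on the opposite strand, and the sources used here do not give whether the counting used strand.

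*Upf2* (ENSMUSG00000043241, chromosome 2, 5951469 to 6056703), which encodes the bridge between UPF1 and the UPF3 proteins, stayed close to its controls. It had 84.3, 66.3 and 73.4 CPM in Gl2-KD and 77.8, 68.6 and 73.4 CPM in Srrm2-KD at 24 h. At the later time it had 94.8, 66.9 and 72.6 CPM in Gl2-KD and 92.5, 67.3 and 58.4 CPM in Srrm2-KD. The groups overlapped, with log2 fold changes of -0.02 (SE 0.11) and -0.11 (SE 0.11), and the value at 72 h rested on experiment 3.

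*Upf3a* (ENSMUSG00000038398, chromosome 8, 13785615 to 13799193) and *Upf3b* (ENSMUSG00000036572, chromosome X, 37091678 to 37110322) encode alternative partners of UPF2, of which UPF3B is the stronger activator of decay. *Upf3a* had 28.9, 50.5 and 41.5 CPM in Gl2-KD and 32.7, 46.8 and 40.4 CPM in Srrm2-KD at 24 h. The 72 h levels were 33.3, 47.2 and 43.0 CPM against 31.0, 44.1 and 41.0 CPM. *Upf3b* had 52.8, 60.6 and 65.4 CPM in Gl2-KD and 47.7, 64.8 and 69.6 CPM in Srrm2-KD at 24 h, and 57.7, 64.7 and 60.5 CPM against 55.3, 61.8 and 58.8 CPM at 72 h. At 72 h both paralogs were lower in Srrm2-KD in 3 of 3 experiments, by small and even steps, with log2 fold changes of -0.09 (SE 0.09) for *Upf3a* and -0.06 (SE 0.10) for *Upf3b*. *Smg9* was the only other member with this direction in 3 of 3 experiments at 72 h, with a log2 ratio of only -0.001 in experiment 1. The count was thus 3 of 9, and 23.1% of all genes tested were likewise lower in all experiments. The count of members higher in 3 of 3 experiments was 1 of 9 at 72 h (*Upf1*, 18.8% of all genes tested). At 24 h it was 1 of 9 higher (*Smg6*, 17.3% of all genes) and 1 of 9 lower (*Smg1*, 15.4%).

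*Smg1* (ENSMUSG00000030655, chromosome 7, 118131308 to 118243670, reverse strand) encodes the UPF1 kinase, and its levels were set by the experiment far more than by the siRNA. It had 227, 84.5 and 91.4 CPM in Gl2-KD and 198, 77.3 and 89.3 CPM in Srrm2-KD at 24 h. At 72 h it had 242, 85.5 and 78.8 CPM in Gl2-KD and 265, 71.8 and 83.4 CPM in Srrm2-KD. The log2 fold change was -0.11 (SE 0.12) at 24 h and -0.01 (SE 0.12) at 72 h, and the groups overlapped at both times.

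The regulators of this kinase differed as little between the siRNAs. *Smg8* (ENSMUSG00000020495, chromosome 11, 87077732 to 87086774) had 43.5, 45.2 and 34.8 CPM in Gl2-KD and 40.9, 40.8 and 34.8 CPM in Srrm2-KD at 24 h. The 72 h levels were 40.8, 35.4 and 27.4 CPM in Gl2-KD and 45.8, 33.3 and 30.0 CPM in Srrm2-KD, with log2 fold changes of -0.08 (SE 0.11) and 0.07 (SE 0.11). *Smg9* (ENSMUSG00000002210, chromosome 7, 24399619 to 24422778) had 26.5, 43.5 and 37.3 CPM against 30.2, 38.7 and 36.8 CPM at 24 h, and 29.9, 35.6 and 42.7 CPM against 29.9, 30.0 and 39.0 CPM at 72 h. Its log2 fold changes were -0.01 (SE 0.13) and -0.12 (SE 0.13), and Gl2-KD and Srrm2-KD overlapped for both genes.

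*Smg5* (ENSMUSG00000001415, chromosome 3, 88336260 to 88362338), which encodes an adaptor that brings decay enzymes to phosphorylated UPF1, had the smallest ratio of the highest to the lowest library among the members, 1.29. It had 236, 234 and 224 CPM in Gl2-KD and 243, 223 and 226 CPM in Srrm2-KD at 24 h. Its 72 h levels were 221, 203 and 207 CPM against 252, 195 and 208 CPM. The log2 fold change was -0.005 (SE 0.09) at 24 h and 0.05 (SE 0.09) at 72 h, the latter resting on experiment 1. *Smg6* (ENSMUSG00000038290, chromosome 11, 74925823 to 75164448), the endonuclease gene, shares 126 nt with *Srr* and 117 nt with *Gm12333* on the opposite strand. It had 74.3, 55.9 and 47.0 CPM in Gl2-KD and 80.6, 58.0 and 48.9 CPM in Srrm2-KD at 24 h. At 72 h it had 78.6, 50.8 and 49.4 CPM against 84.8, 47.4 and 43.3 CPM, and the log2 fold changes were 0.07 (SE 0.10) and -0.06 (SE 0.10). The 24 h values of *Smg6* were higher in Srrm2-KD in every experiment, but by at most 0.12 on the log2 scale.

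**Figure D2:**
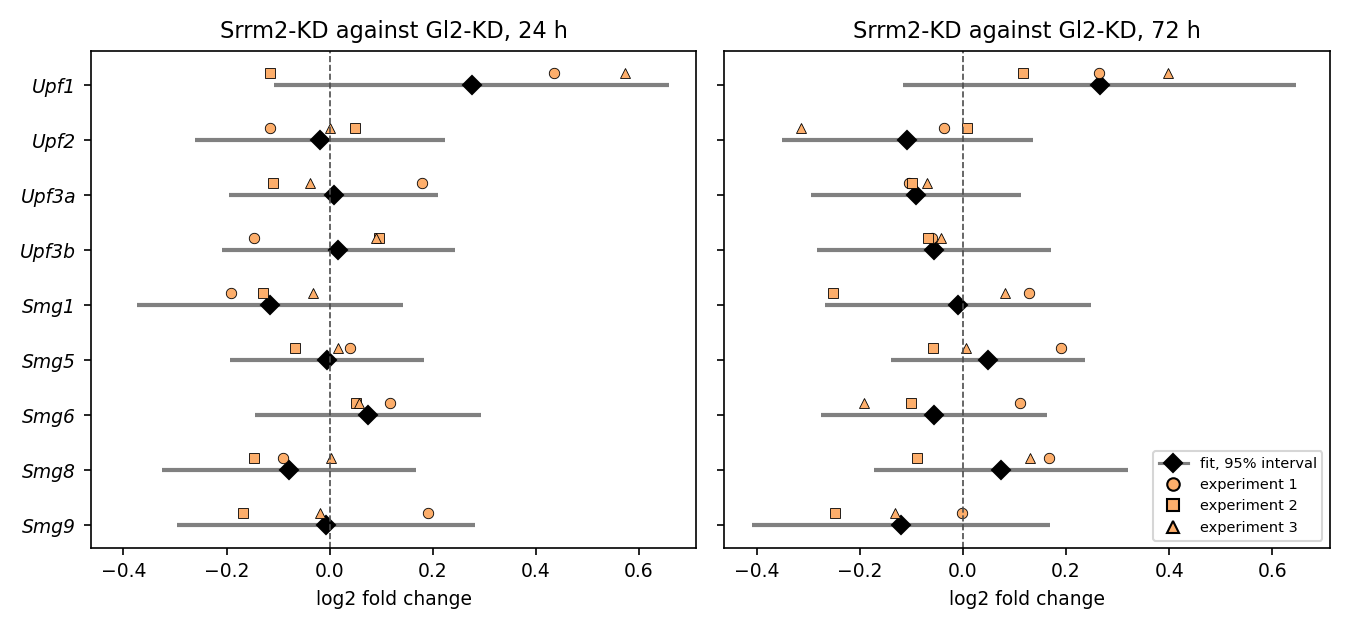
Log2 fold change of Srrm2-KD against Gl2-KD for each member at 24 h and 72 h, with the edgeR estimate as a diamond, its 95% interval as a bar and the ratio within each experiment above it. Every interval includes 0, and *Upf1* has both the highest estimates, 0.28 and 0.27, and the widest intervals.

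The precision of these fits limits what the members can show about NMD load. The 95% intervals of the 8 members other than *Upf1* spanned at most 0.772-fold to 1.23-fold at 24 h and 0.753-fold to 1.25-fold at 72 h. For these 8 transcripts a larger shift in either direction lay outside the interval of each gene taken alone. The intervals cover 1 gene at a time and the spread between these 3 experiments. Without experiment 1, 0 members were called and 0 had an unadjusted p below 0.05 at either time in edgeR. The shares of all genes in that fit are not given here, so these counts do not set the members apart.

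The members were also compared between the times within each siRNA. In Gl2-KD, 0 of 9 members were called for 72 h against 24 h, where 1.45% of all genes were called, and their log2 fold changes ran from -0.26 to 0.06. *Smg8*, with the Gl2-KD values given above, was lower at 72 h in 3 of 3 experiments, with a log2 fold change of -0.26 (SE 0.11). It was the only one of the 9 with an unadjusted p below 0.05 (0.0382, with an adjusted p of 0.264 in edgeR), against 16.8% of all genes tested. *Smg5* was also lower at 72 h in 3 of 3 experiments (-0.14, SE 0.09, adjusted p = 0.467 in edgeR), and its levels at both times did not overlap, as for 3.36% of all genes tested in this direction. In Srrm2-KD, 0 of 9 members were called (0.551% of all genes), with log2 fold changes of -0.13 to 0.07. *Smg8* had -0.11 (SE 0.11) and *Smg5* -0.085 (SE 0.09) there, each higher in experiment 1 and lower in the other two. The effect of the *Srrm2* siRNA at 72 h differed from that at 24 h by -0.13 to 0.15 on the log2 scale over the 9 members, with an adjusted p of 1 for each (edgeR, 0% of all genes called, 0 members with an unadjusted p below 0.05).

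The members differed between experiments by more than between the siRNAs. In all 4 libraries of experiment 1, *Smg1*, *Smg6* and *Upf2* were above, and *Upf3a* and *Upf3b* below, every library of experiments 2 and 3. *Smg1* reached 198 to 265 CPM in experiment 1 and 71.8 to 91.4 CPM in the other 8 libraries, which is 2.81-fold higher on the mean log2 scale. *Smg6* was 1.59-fold and *Upf2* 1.28-fold higher, while *Upf3a* was at 0.712-fold and *Upf3b* at 0.843-fold. *Smg9* was at 0.771-fold, overlapping by a narrow margin (26.5 to 30.2 CPM against 30.0 to 43.5 CPM), and *Upf1*, *Smg8* and *Smg5* were at 1.23-fold, 1.23-fold and 1.11-fold with overlap. Over all genes tested, 16.7% were above and 13.7% below in this way. These are descriptions with no test, since the 4 libraries of an experiment belong together and experiment 1 is set against only 2 others. Experiments 2 and 3 differed from each other by less, from -0.11 to 0.28 on the log2 scale over the 9 members.

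The shift in experiment 1 followed the length of the transcript. Ordered by main isoform, *Upf3a* (2057 nt), *Smg9* (2242 nt) and *Upf3b* (2344 nt) had mean log2 shifts of -0.49, -0.38 and -0.25. *Smg8* (3218 nt) had 0.29, *Smg5* (4448 nt) 0.15, *Upf1* (4618 nt) 0.30 and *Upf2* (5174 nt) 0.35. The longest, *Smg6* (5848 nt) and *Smg1* (15557 nt), had 0.67 and 1.49. Spearman's rho between length and shift was 0.98 over the 9 members, and 0.92 to 0.97 in each of the 4 groups. These 9 points share the same libraries and are not independent. Across 15518 coding genes rho was 0.56, in the same direction. The median log2 shift of coding genes rose from -0.59 below 1500 nt to 1.06 at 10000 nt and above. For genes within 1.1-fold of its length, the median shift was 1.23 beside the 1.49 of *Smg1*, 0.51 beside the 0.67 of *Smg6* and -0.29 beside the -0.49 of *Upf3a*. All 9 members lay within the 5th to 95th percentiles of genes of like length. Base composition moved with the shift more weakly, with a rho of -0.35 over the members and -0.31 over the coding genes. The part of RNA handling or library preparation in this pattern was not tested. *Srrm2* itself, at 8864 nt, was 2.29-fold higher in experiment 1.

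**Figure D3:**
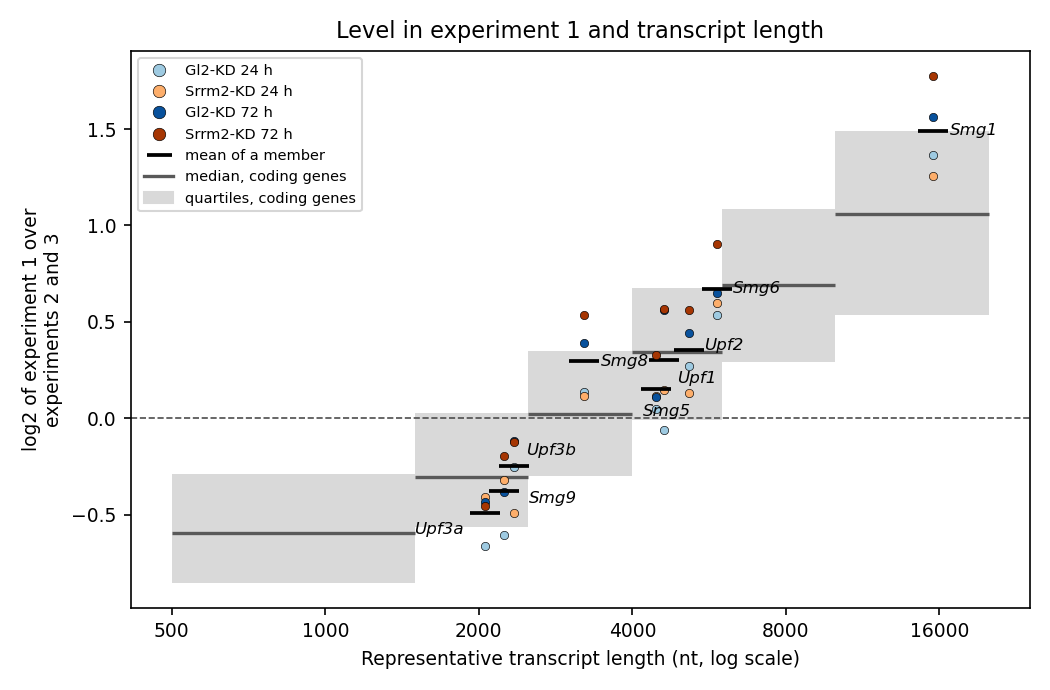
Log2 ratio of experiment 1 over the mean of experiments 2 and 3 (log2 CPM scale) against the length of the main isoform (log axis), with 1 point per group and a bar at the mean of each member. Grey boxes give the quartiles and grey lines the medians of coding genes in bins of length, the first bin holding all genes below 1500 nt and the last all from 10000 nt, and the members rise with length from *Upf3a* at -0.49 to *Smg1* at 1.49.

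How far the members varied together depended on whether the differences between experiments were kept. Among the 36 pairs of members, Pearson's r of log2 CPM over the 12 libraries ran from -0.92 to 0.93 with a median of 0.06. These values include the shift of experiment 1 described above. With the mean of each experiment removed r ran from -0.21 to 0.90, with a median of 0.35. The r of pairs of other genes is not given here, so neither range sets the members apart. The genes outside the list most like the mean log2 CPM of the members were *Znfx1*, *Taok2*, *Ap3d1*, *Slc30a5* and *Trp53bp1* (r = 0.97, 0.97, 0.97, 0.96 and 0.96 over 12 libraries). All 5 were higher in experiment 1, by 0.39 to 0.82 on the log2 scale. With experiment means removed they were *Gm17494*, *Farsa*, *Dhx38*, *Ccdc96* and *Zfp142*, with r from 0.95 to 0.97. No gene was shared between these lists of 5, which were chosen from all genes tested and get no test.

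The other genes of the pathway were 12 other NMD factors, 8 genes of the exon junction complex and cap binding, 9 of decapping and decay and 18 natural NMD substrates. Of these 47 genes 0 were called at 24 h or 72 h in edgeR. Since 0 of all 19410 genes were called at either time, this count does not set the lists apart. At 24 h, 3 of these 47 genes (6.38%) had an unadjusted p below 0.05, and at 72 h 10 of 47 (21.3%) had. Of all genes tested, 2.62% and 12.9% had, as given above. The lists were chosen with earlier results of these data known, so these shares cannot show an excess in the pathway. The median log2 fold changes of these lists lay between 0.006 and 0.07 at both times, beside 0.005 and -0.01 over all genes.

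Of the other NMD factors, 0 of 12 had an unadjusted p below 0.05 at either time, against 2.62% of all genes tested at 24 h and 12.9% at 72 h. The lowest p-values at 24 h belonged to *Tti2*, which was at 0 to 0.528 CPM and has no usable fold, and *Sec13*, a coat and nuclear pore protein gene, at 0.11 (SE 0.11). At 72 h they belonged to *Gspt2*, a translation release factor gene, at -0.21 (SE 0.12), and *Ruvbl1*, which encodes an ATPase of the SMG1 assembly pathway, at 0.16 (SE 0.13). In the exon junction and cap binding list, *Ncbp2*, the cap-binding subunit gene, had 0.17 (SE 0.15) and *Rbm8a*, which encodes a core exon junction protein, -0.10 (SE 0.09) at 24 h. At 72 h the core component gene *Casc3* had -0.22 (SE 0.09, unadjusted p = 0.0346, adjusted p = 0.347 in edgeR) and *Magohb* 0.31 (SE 0.18). *Casc3* was lower in 3 of 3 experiments at 72 h, as were 23.1% of all genes tested. It was the only one of these 8 with an unadjusted p below 0.05, against 12.9% of all genes tested at 72 h. This count does not set the list apart.

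The decapping and decay list held the most genes with an unadjusted p below 0.05, 3 of 9 at 24 h and 5 of 9 at 72 h. None of them passed the adjustment. The shares over all genes tested were 2.62% and 12.9%. Since the list was chosen with earlier results of these data known, no excess is drawn from these counts. *Dcp2*, the catalytic subunit of the decapping enzyme, had 180.4, 108 and 89.5 CPM in Gl2-KD and 128, 77.0 and 76.6 CPM in Srrm2-KD at 24 h, and 182, 103 and 68.7 CPM against 128, 72.5 and 64.4 CPM at 72 h. Each experiment had less *Dcp2* in Srrm2-KD at both times. Its log2 fold changes were -0.40 (SE 0.12, adjusted p = 1) and -0.37 (SE 0.12, adjusted p = 0.238) in edgeR, and the groups overlapped because of the difference between experiments. *Dis3*, which encodes a ribonuclease of the exosome, had 35.6, 47.1 and 27.6 CPM in Gl2-KD and 41.4, 64.0 and 42.7 CPM in Srrm2-KD at 24 h. At 72 h it had 34.1, 44.1 and 20.5 CPM against 39.9, 50.2 and 31.5 CPM. It was higher in 3 of 3 experiments at both times, with log2 fold changes of 0.44 (SE 0.13, adjusted p = 1) and 0.33 (SE 0.13, adjusted p = 0.316) in edgeR.

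*Exosc10*, the nuclear exosome subunit gene, had 128, 147 and 125 CPM in Gl2-KD and 150.2, 168 and 155 CPM in Srrm2-KD at 24 h, and 149.5, 154 and 115 CPM against 175, 193 and 147 CPM at 72 h. Every Srrm2-KD library was above every Gl2-KD library at 24 h, and the groups overlapped at 72 h. How many of all genes lacked overlap between the siRNAs is not given here, so this trait does not set *Exosc10* apart. The log2 fold changes were 0.24 (SE 0.10, adjusted p = 1) and 0.30 (SE 0.10, adjusted p = 0.244) in edgeR. It was called at 72 h with a replicate block for each experiment and time point (adjusted p = 0.0393), and its adjusted p ranged from 0.0393 to 1 over the settings tried. The other genes of this list with a low p at 72 h were named after their values were seen. They were *Dis3l* at 0.32 (SE 0.12) and *Pnrc2* at 0.28 (SE 0.12), both higher in 3 of 3 experiments. Neither gene had overlapping groups at that time, which without the share of all genes does not set *Dis3l* and *Pnrc2* apart. Hence 4 of these 5 genes had positive log2 fold changes at 72 h and 1 a negative one, and their adjusted p-values in edgeR were 0.238 to 0.360.

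**Figure D4:**
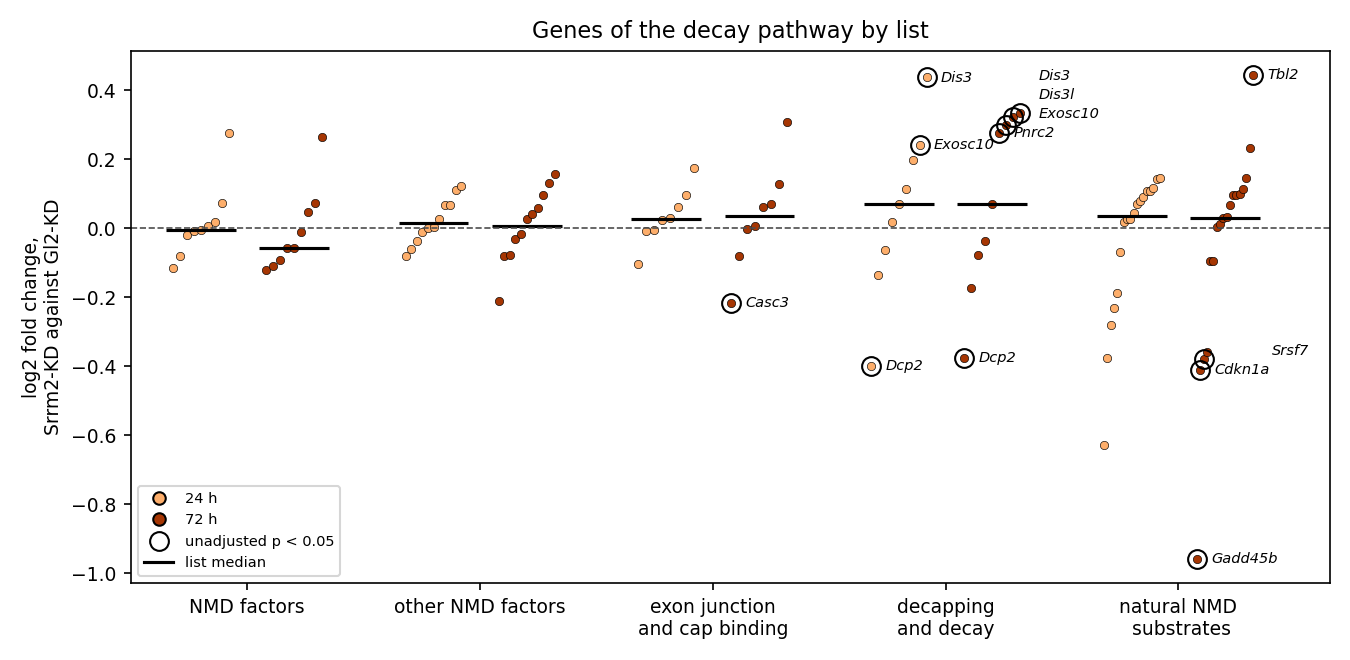
Log2 fold change of Srrm2-KD against Gl2-KD for each gene of the 5 lists at 24 h and 72 h, ordered by value within a list, with a line at the list median. Circled genes had an unadjusted p below 0.05 and none was called in edgeR, and *Tti2*, near 0 CPM, is left out of the points but not of the medians.

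Natural NMD substrates, transcripts known to be kept low by the pathway, showed no common direction. Of 19 listed genes 18 were found by symbol. At 24 h 0 of 18 had an unadjusted p below 0.05, against 2.62% of all genes tested. At 72 h 4 of 18 had, against 12.9% of all genes, 1 with a higher and 3 with a lower level in Srrm2-KD. *Gadd45b*, a stress-induced gene, had 2.23, 11.9 and 8.99 CPM in Gl2-KD and 1.95, 7.42 and 4.50 CPM in Srrm2-KD at 24 h, and 3.42, 7.72 and 16.4 CPM against 2.15, 5.68 and 5.48 CPM at 72 h. It was lower in 3 of 3 experiments at both times, with log2 fold changes of -0.63 (SE 0.30, adjusted p = 1) and -0.96 (SE 0.30, adjusted p = 0.244) in edgeR. DESeq2 called it at 72 h (adjusted p = 0.0436), and its adjusted p reached 1 under other settings. *Srsf7*, which encodes an SR splicing factor with an NMD-targeted isoform, had 186, 162 and 177 CPM in Gl2-KD and 150.5, 152.7 and 144 CPM in Srrm2-KD at 24 h. Its 72 h levels were 140, 150 and 171 CPM against 88.9, 126 and 142 CPM.

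At 24 h the *Srsf7* groups did not overlap, while at 72 h they did. Without the share of all genes that lacked overlap, this does not set *Srsf7* apart. Its log2 fold changes were -0.23 (SE 0.14, adjusted p = 1) and -0.38 (SE 0.14, adjusted p = 0.290) in edgeR, and it was called at 72 h with a replicate block for each experiment and time point (adjusted p = 0.0486). The further genes with a low p at 72 h were named after their values were seen. They were the cell cycle inhibitor gene *Cdkn1a* at -0.41 (SE 0.15) and *Tbl2* at 0.44 (SE 0.17). The 72 h groups overlapped for *Cdkn1a* but not for *Tbl2*, and without the share of all genes this does not set *Tbl2* apart. The host transcripts of small nucleolar RNAs, which are spliced but hold no long reading frame and are textbook NMD targets, were also named after their values were seen. Their log2 fold changes at 24 h and 72 h were small and positive, with *Gas5* at 0.08 (SE 0.11) and 0.10 (SE 0.11), *Zfas1* at 0.03 (SE 0.13) and 0.15 (SE 0.13), *Snhg12* at 0.07 (SE 0.10) and 0.03 (SE 0.10) and *Snhg15* at 0.09 (SE 0.10) and 0.10 (SE 0.10). None of these 4 transcripts had an unadjusted p below 0.05.

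Over the whole transcriptome, 4026 coding genes tested have at least 1 annotated isoform of the NMD class and 11526 have none. The median log2 fold change of Srrm2-KD against Gl2-KD was -0.004 in the former and 0.001 in the latter at 24 h, and -0.04 and -0.02 at 72 h. The share of genes with a positive value was 49.1% and 50.3% at 24 h and 42.3% and 46.8% at 72 h. These are descriptions with no test. At the level of whole-gene counts, the median of the genes with an NMD-class isoform was thus not above that of the genes without one at either time.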

How the data were processed

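PolyA+ RNA of 12 libraries was analysed. The authors pseudo-aligned reads to the GENCODE M24 transcriptome with Kallisto 0.46.1 and deposited estimated counts per gene, not normalized for library size. The sources used here do not give how transcripts were combined into genes. Counts were rounded and analysed with edgeR 4.0.16 in R 4.3.3. Genes passed filterByExpr (minimum count 10, minimum total 15), and library sizes were scaled by TMM. The 12 libraries were fitted together, with group and experiment (the block) as terms. Contrasts were tested with glmQLFTest (legacy=TRUE) over all 19410 genes and called where the p adjusted by Benjamini-Hochberg was below 0.05. The authors' covariate was the RNA processing day, which the sources used here do not give, so the experiment number of the labels took its place. With group means removed, the 18 pairs of libraries of the same experiment correlated across genes with r of 0.281 to 0.747, against -0.628 to 0.231 for the 36 pairs that differed in both experiment and group. Members were matched by symbol (42156 of 42450 identifiers matched GENCODE M21, GRCm38).

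The members and lists were chosen with earlier results of these data known. Named genes are the members, *Srrm2*, the 2 genes of each list with the smallest p at 24 h and at 72 h, and the 5 genes most correlated with the members' mean. Log2 CPM used a prior count of 2. Alternatives were DESeq2 1.42.0, limma-voom (limma 3.58.1), RLE factors, library totals, legacy=FALSE, robust=TRUE, 2 other filters, no block, a block per experiment and time, each time alone, and leaving out each library or experiment. The fits were also run on simulated counts that held no difference between experiments. That run therefore cannot show how the fits perform where experiments differ, as they do here.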

Additional observations from a re-analysis of the deposited data

How the results depend on the processing

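With all 9 members the count of calls stayed at 0 in the 5 comparisons under every setting tried. There were 24 to 26 settings for each, including the fits with no replicate block and without each library or experiment. The edgeR test as reported called 0% of all genes in both knockdown comparisons and in their difference. Limma-voom called 0.0103% at 24 h and 0.0206% at 72 h for the knockdown. Counts of 0 there do not set the members apart from other genes. Among the alternative settings, shares of all genes are given here only for DESeq2 and limma-voom in the knockdown comparisons. The counts of 0 under the remaining settings do not set the members apart either. Removing the replicate block turned the log2 fold change of *Smg1* at 72 h from -0.01 to 0.047 and that of *Upf3a* at 24 h from 0.008 to -0.012, and changed no call of a member. Signs near 0 also turned elsewhere. *Smg1* at 72 h was 0.005 with DESeq2 and with RLE factors, 0.002 with limma-voom and 0.006 with at least 10 counts in every library. *Upf3a* at 24 h was -0.002 with library totals only, and with no filter on low counts *Smg5* was 0.007 and *Smg9* 0.004 at 24 h. With 1 library or experiment left out, the log2 fold changes at 24 h ranged from -0.095 to 0.077 for *Upf2*, -0.076 to 0.078 for *Upf3a*, -0.077 to 0.125 for *Upf3b*, -0.055 to 0.043 for *Smg5*, -0.152 to 0.001 for *Smg8* and -0.112 to 0.155 for *Smg9*. At 72 h they ranged from -0.224 to 0.010 for *Upf2*, -0.166 to 0.097 for *Smg1*, -0.054 to 0.099 for *Smg5*, -0.187 to 0.009 for *Smg6* and -0.062 to 0.156 for *Smg8*. The causes were not tested. *Upf1* kept a positive sign in all settings, from 0.116 to 0.547 at 24 h and 0.119 to 0.400 at 72 h. Of 1010 values of single genes recomputed over 39 results, 37 changed sign, each a value with no call, and 21 came to pass the threshold, those of *Srrm2*, *Exosc10*, *Gadd45b* and *Srsf7*. The log2 fold changes of *Srrm2*, -1.22 at 24 h and -1.16 at 72 h, did not pass the threshold of the edgeR test as reported. With DESeq2 its adjusted p was 5.03e-11 at 24 h and 1.72e-09 at 72 h. The paper's own edgeR fit, with the RNA processing day as covariate, called *Srrm2* at both times and further genes at 72 h. The reason for this difference was not tested. Each member had 2196 or more estimated counts in every library.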
